A study of Mus musculus with 6 samples.

Results

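The p53 pathway and the DNA damage response were examined through 36 genes, in DN1 thymocytes labelled Tle134-deficient and in WT DN1 thymocytes. The genes were given by name, and each was found as a single locus of its own in all 6 deposited tables, out of 24318 gene symbols. They comprise Trp53 with its regulators Mdm2 and Mdm4, 18 p53 targets, the 3 Gadd45 genes, 4 damage kinases and 8 mediators and repair factors. DN1 is the first of the CD4- CD8- thymocyte stages and includes early progenitors that have just entered the thymus. Cells were taken from mice aged 5 to 8 weeks by sorting: CD44 had to be present, while CD25, CD8a, TCRb and other lineage antigens had to be absent. Each group has 3 libraries. Tle134 is read here as the Groucho/Tle corepressor genes Tle1, Tle3 and Tle4. How and in which cells they were deleted, and whether the libraries came from separate animals, is not given in the labels, so a p-value refers to library-to-library variation, some of which may be technical.

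The transcription factor p53 is held low in resting cells by Mdm2, a ubiquitin ligase that is itself a p53 target, and by the related Mdm4. After DNA double-strand breaks or stalled replication, the kinases ATM and ATR and the checkpoint kinases act on p53 and on its inhibitors, and p53 then activates genes of cell cycle arrest, repair, metabolism and apoptosis. In thymocytes the pathway is known for removing cells with unrepaired breaks from receptor gene rearrangement. Many damage genes, among them Chek1, Brca1 and Brca2, are also expressed most in dividing cells.

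Some facts on the libraries touch every value below. The targeted genes were not lower in the libraries labelled deficient, although none of the 3 differed past the threshold (limma adjusted p = 0.0954 for Tle1, 0.234 for Tle3 and 0.726 for Tle4). Tle1 averaged 11.3 ± 0.185 FPKM in the libraries labelled Tle134-deficient and 2.06 ± 1.35 FPKM in WT (SD, n = 3 each), Tle3 72.9 ± 12.6 and 28.5 ± 6.56 FPKM, and Tle4 26.9 ± 8.73 and 17.1 ± 2.25 FPKM. The groups overlapped for Tle4 and did not for Tle1 and Tle3. A whole-locus value includes reads outside any deleted exons, so it checks the labels only in part, and the group is called "labelled Tle134-deficient" or "labelled-deficient" throughout. FPKM divides fragment counts by transcript length and by the mapped total. Over all genes tested FPKM summed to 1574000, 555500 and 659600 in labelled-deficient replicates 1 to 3. In WT replicates 1 to 3 the sums were 914700, 220700 and 2317000. The upper quartiles lay closer together, between 14.58 and 21.79 FPKM. Of the genes of the gate, Cd44 lay between 27.5 and 74.3 FPKM over the 6 libraries and Cd8a between 0 and 2.48 FPKM. Il2ra, which encodes CD25, was at 4.22 to 7.36 FPKM in the labelled-deficient libraries and at 1.69 to 3.59 FPKM in WT. Its groups did not overlap, as for 15.2% of all genes tested, and it did not pass the test (limma adjusted p = 0.575). The progenitor receptor Kit, not among the antigens named for the sort, lay between 9.09 and 37.1 FPKM. Read totals are unknown. The deposited intervals imply 1.51e+06 to 4.34e+06 fragments in named loci of the labelled-deficient libraries and 1.42e+06 to 3.24e+06 in those of WT, with replicate 1 the shallowest in both groups. For the median member they imply 59.4, 127 and 302 fragments in labelled-deficient replicates 1 to 3 and 52.7, 182 and 149 in WT replicates 1 to 3.

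Of the marker lists, genes passed the test only among B-lineage markers; the lists of T-lineage, myeloid, cell cycle and stress genes had 0. The summed level of 17 B-lineage markers was 1060 to 1340 FPKM in the labelled-deficient libraries and 134 to 245 FPKM in WT. Of these 17 markers, 10 passed the test as higher (0.642% of all genes tested did) and 15 were higher with no overlap (8.67% of all genes tested). No gene at all passed without labelled-deficient replicate 1 or 2 or without WT replicate 1, so these calls did not hold there. Each of those fits has fewer libraries, and why the calls were lost was not tested. Of the 17, 0 to 1 markers were at 0 in a labelled-deficient library and 2 to 4 in a WT library. The defining marker Cd79a, a signalling chain of the B cell receptor, was at 287, 209 and 161 FPKM in labelled-deficient cells against 8.95, 6.88 and 38.6 FPKM in WT cells, so it was at 0 in neither group. The sum of 16 T-lineage markers was 272 to 805 FPKM in the labelled-deficient libraries and 454 to 1190 FPKM in WT. Cell cycle genes (22 genes) summed to 201, 177 and 464 FPKM in labelled-deficient replicates 1 to 3 and to 288, 287 and 502 FPKM in WT replicates 1 to 3. Monocyte, macrophage and neutrophil markers (22 genes) summed to 372, 270 and 2080 FPKM in labelled-deficient replicates 1 to 3 and to 211, 355 and 844 FPKM in WT. Stress and immediate-early genes (18 genes) summed to 1280, 1550 and 1730 FPKM in the labelled-deficient libraries and to 1030, 1700 and 1810 FPKM in WT. The part of these genes and cells in the members' values was not tested. In bulk samples fewer cells of a type and less RNA per cell cannot be told apart.

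The members were first described by a sequence feature that their measured values did not choose. The p53 half-site consensus, a palindrome that reads the same on both strands, was searched for in the 250 bases before each RefSeq transcription start of build GRCm38.p6. Of the 29 members with a promoter window, 8 held a match (27.6%), against 8.2% of 27025 genes with a window. All 8 were among the 20 matched genes of Trp53, its regulators, targets and the Gadd45 family, and 0 were among the 9 matched kinases, mediators and repair factors. With 9 genes, 0 matches cannot be told from a share of 8.2%. The targets entered the list as p53 targets, so their share is not an independent result. Trp53inp1, Zmat3, Ddb2, Xpc, Nbn, Rad50 and H2afx had no entry. A match is a run of letters, not evidence of binding. The 8 matches are shown because they mark the members with a half-site match within 250 bases before a start site. Each is given with its half-site in capitals:
Trp53, chr11:69580274-69580303, plus strand: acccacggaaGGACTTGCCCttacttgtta
Mdm2, chr10:117710925-117710954, minus strand: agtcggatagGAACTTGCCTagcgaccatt
Ccng1, chr11:40755452-40755481, minus strand: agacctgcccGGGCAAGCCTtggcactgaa
Sesn1, chr10:41887256-41887285, plus strand: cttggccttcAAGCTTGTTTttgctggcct
Aen, chr7:78895927-78895956, plus strand: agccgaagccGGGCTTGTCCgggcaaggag
Polk, chr13:96519399-96519428, minus strand: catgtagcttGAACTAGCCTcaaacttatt
Ei24, chr9:36797335-36797364, minus strand: ccagctgccccgtgcggcccGGGCATGCCC
Gadd45a, chr6:67037428-67037457, minus strand: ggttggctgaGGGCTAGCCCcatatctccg

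By the mean of the 6 libraries the most abundant member was Btg2, an antiproliferative p53 target that is also an immediate-early gene. It averaged 63.4 ± 8.97 FPKM in the labelled-deficient libraries and 48.9 ± 11.4 FPKM in WT (SD, n = 3 each). H2afx, which encodes the histone variant phosphorylated at breaks, came next at 42.1 ± 16.3 and 57.7 ± 30.7 FPKM. Its WT mean was above that of Btg2, and its groups overlapped. Trp53 itself followed. At the other end, Eda2r, a death receptor of the TNF receptor family, was at 0, 0.206 and 0.254 FPKM in labelled-deficient cells against 1.31, 0.028 and 0.633 FPKM in WT cells and did not reach the level required for testing. Zmat3, a zinc finger RNA-binding protein induced by p53, stayed between 0.386 and 2.22 FPKM, and the Akt antagonist Phlda3 was at 8.23, 1.12 and 0.454 FPKM in labelled-deficient cells against 0, 1.37 and 2.76 FPKM in WT cells. An exact 0 can be a failed estimate, although no locus was flagged as one in any of the 6 libraries.

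**Figure D1:**
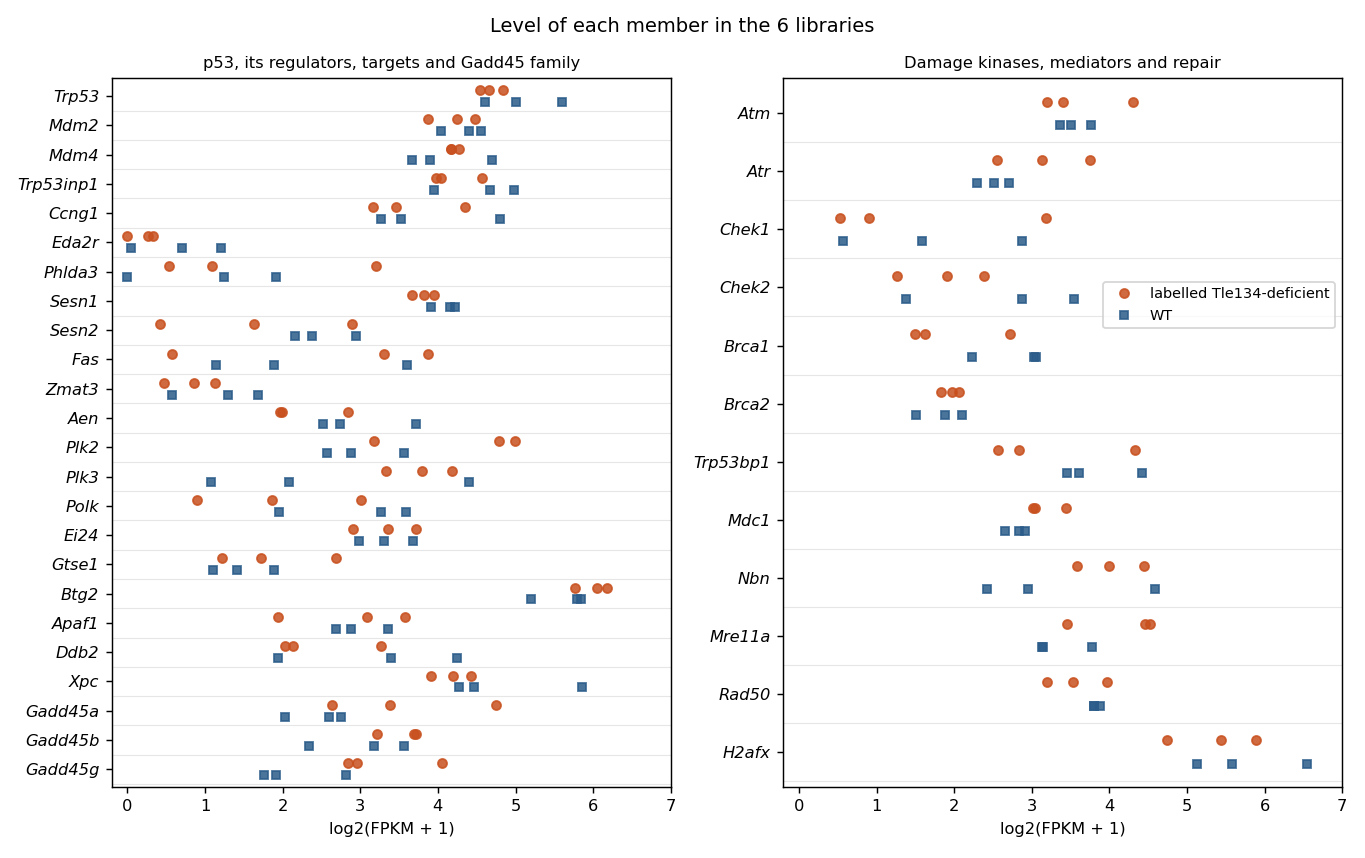
Log2(FPKM + 1) of each of the 36 members in the 3 libraries labelled Tle134-deficient (circles, upper row of each gene) and the 3 WT libraries (squares, lower row), with the p53 arm left and the damage arm right. Btg2, H2afx and Trp53 are highest by mean, Eda2r is lowest, and the groups overlap for all members except Gadd45g and Mdc1.

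The comparison between groups asked whether the p53 and damage genes differ in cells labelled as lacking the Tle corepressors. No member passed the threshold. Of the 35 members tested, 0 were higher and 0 lower at an adjusted p under 0.05 (limma on log2(FPKM + 1), Benjamini-Hochberg over 11063 genes), where 83 of all genes tested passed (0.75%; 0.642% higher and 0.108% lower). At an unadjusted p under 0.05 there was 1 member, Plk2, against 10.0% of all genes tested. The groups did not overlap for 2 members, Gadd45g and Mdc1, both higher in the labelled-deficient libraries; such separation was seen for 15.2% of all genes tested, 8.67% higher and 6.56% lower. Of the log2 differences, 17 were above 0 and 18 below, with a median of -0.11, where all genes tested had a median of 0.04. A p that misses the threshold does not show equal levels: the 95% interval of the log2 difference lay wholly between -1 and 1 for 2 members, Mdm2 and Ei24, and between -2 and 2 for 24 of the 35.

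**Figure D2:**
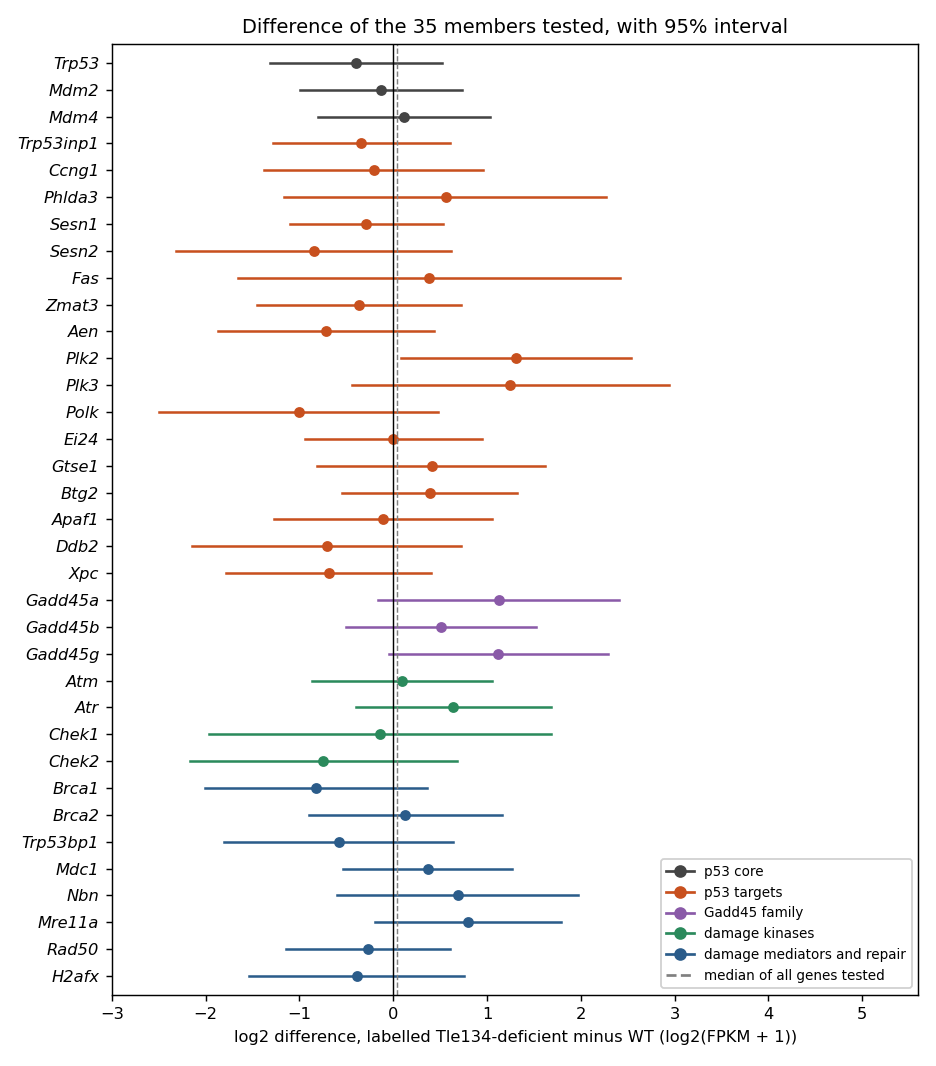
Log2 difference of the 35 members tested, labelled Tle134-deficient minus WT on the log2(FPKM + 1) scale, with its 95% interval from limma (points and bars, coloured by role), and the median of all genes tested (dashed line). The interval of Plk2 alone lies above 0 before adjustment for the number of genes.

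At the core of the pathway, the RNA levels of Trp53, Mdm2 and Mdm4 overlapped between the groups. The protein level and activity of p53 were not measured here. Trp53 (mm9 chromosome 11, 69393861 to 69405375) was at 22.2, 27.7 and 24.2 FPKM in labelled-deficient replicates 1 to 3, against 23.4, 31.1 and 47.4 FPKM in WT replicates 1 to 3. Its highest value was in WT replicate 3 and the other 5 libraries lay within 22.2 to 31.1 FPKM. The log2 difference was -0.40 ± 0.41 (SE; 95% interval -1.31 to 0.52; limma adjusted p = 0.853).

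Mdm2 (chromosome 10, 117125931 to 117147814) was at 13.7, 21.3 and 18.0 FPKM in labelled-deficient cells and at 22.4, 15.5 and 20.1 FPKM in WT cells (log2 difference -0.13 ± 0.38, limma adjusted p = 0.973). Mdm4 (chromosome 1, 134882001 to 134927164), which masks the activation domain of p53, was at 16.9, 18.3 and 17.0 FPKM in labelled-deficient cells and at 11.7, 25.0 and 13.9 FPKM in WT cells (0.11 ± 0.41, adjusted p = 0.979). For Mdm4 the labelled-deficient values all lay inside the WT range, and the sign of its difference turned under other scalings and without WT replicate 1. The sign for Mdm2 turned without labelled-deficient replicate 1.

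Among the p53 targets, the polo-like kinases had the largest differences above 0. Plk2 (chromosome 13, 111185252 to 111192426), a centriole and stress kinase, was at 30.8, 26.5 and 8.02 FPKM in labelled-deficient cells, against 4.95, 10.8 and 6.35 FPKM in WT cells. Labelled-deficient replicates 1 and 2 lay above every WT library and replicate 3 lay inside the WT range. The deposited intervals imply 54.2, 890 and 70.5 Plk2 fragments in labelled-deficient replicates 1 to 3 and 39.4, 379 and 85.8 in WT replicates 1 to 3. The highest value thus rests on few fragments. The log2 difference was 1.31 ± 0.55 (95% interval 0.08 to 2.54, unadjusted p = 0.039, limma adjusted p = 0.451), with 1.88 when labelled-deficient replicate 3 was left out and 0.97 when replicate 1 was. Plk3, an immediate-early stress kinase, averaged 13.1 ± 4.07 FPKM in the labelled-deficient libraries and 8.17 ± 10.4 FPKM in WT, where 1 library reached 20.2 FPKM, above all others (log2 difference 1.25 ± 0.76, adjusted p = 0.677). The Plk3 difference was 0.53 when WT replicate 1 was left out and 2.19 when WT replicate 2 was.

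The remaining targets of growth arrest and metabolism overlapped between the groups. Trp53inp1, a cofactor of p53 in stress and autophagy, averaged 17.7 ± 4.49 and 23.1 ± 8.05 FPKM (labelled-deficient and WT; SD, n = 3 each). Ccng1, the cyclin G that recruits a phosphatase to Mdm2, averaged 12.4 ± 6.05 and 15.3 ± 10.0 FPKM. The sestrins, which restrain mTORC1, had overlapping groups: Sesn1 was at 13.1 ± 1.37 and 16.2 ± 1.89 FPKM, and Sesn2 at 2.95 ± 3.14 and 4.79 ± 1.71 FPKM. Sesn1 had the smallest spread within groups of all members (SD 0.15 on the log2 scale), and its log2 difference was -0.29 ± 0.36 (limma adjusted p = 0.895). Gtse1, a protein of dividing cells that exports p53 from the nucleus, was at 3.03 ± 2.16 and 1.84 ± 0.791 FPKM.

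Targets that act in cell death also overlapped between the groups. Fas, the death receptor, ranged from 0.483 to 13.6 FPKM in the labelled-deficient libraries and from 1.2 to 11.1 FPKM in WT. Its spread within groups was the widest of the members (SD 1.53 on the log2 scale, where the median member had 0.6 and the median of all genes tested was 0.62), and the deposited lower bound was 0 for labelled-deficient replicate 1 and for WT replicate 1. Apaf1, the scaffold of the apoptosome, averaged 7.06 ± 4.03 FPKM in the labelled-deficient libraries and 7.04 ± 1.99 FPKM in WT. Aen, a p53-induced nuclease of apoptosis, averaged 4.02 ± 1.88 and 7.52 ± 4.06 FPKM in the same order (log2 difference -0.72 ± 0.51, adjusted p = 0.735 by limma). Ei24, an endoplasmic reticulum protein, had the smallest difference of all, at 9.27 ± 2.79 and 9.17 ± 2.45 FPKM.

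The targets that act in repair averaged lower in the labelled-deficient libraries, overlapped between the groups and did not pass the test. Xpc, the damage sensor of nucleotide excision repair, averaged 17.3 ± 3.22 FPKM there and 32.1 ± 21.5 FPKM in WT, where replicate 1 alone was at 57.0 FPKM and the other two were at 18.3 and 21.1 FPKM. Ddb2, which finds ultraviolet lesions for Xpc, averaged 5.04 ± 3.13 and 10.1 ± 7.53 FPKM. Polk, a translesion polymerase, averaged 3.52 ± 3.19 and 7.51 ± 4.2 FPKM and had the lowest difference of the members (log2 difference -1.01 ± 0.66, 95% interval -2.5 to 0.48, limma adjusted p = 0.707). That value was -0.5 when labelled-deficient replicate 1 was left out and -1.55 when replicate 2 was, so its place in the order rests on single libraries.

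The Gadd45 genes encode small stress proteins that bind p38-pathway kinases, PCNA and p21; Gadd45a is a p53 target, whereas Gadd45b and Gadd45g are induced mainly by NF-kB and cytokines. All 3 averaged higher in the labelled-deficient libraries and none passed the test. Gadd45g (chromosome 13, 51941998 to 51943843) was at 6.18, 15.6 and 6.75 FPKM in labelled-deficient cells against 2.78, 2.37 and 6.01 FPKM in WT cells. The groups did not overlap, but the gap between 6.18 FPKM in labelled-deficient replicate 1 and 6.01 FPKM in WT replicate 3 was narrow. The log2 difference was 1.12 ± 0.52 (95% interval -0.05 to 2.29, unadjusted p = 0.0579, limma adjusted p = 0.522), and it was 0.74 when labelled-deficient replicate 2 was left out.

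Gadd45a (chromosome 6, 66985090 to 66987401) was at 5.23, 9.42 and 25.8 FPKM in labelled-deficient cells against 5.04, 3.1 and 5.76 FPKM in WT cells (log2 difference 1.13 ± 0.57, limma adjusted p = 0.579; 0.55 when labelled-deficient replicate 3 was left out). Its highest value was in labelled-deficient replicate 3, the library with the highest sum of monocyte, macrophage and neutrophil markers (2080 FPKM). WT replicate 3 was likewise the highest of its group for both (sum 844 FPKM). Replicates 1 and 2 ran in the opposite order to Gadd45a in both groups. Their marker sums were 372 and 270 FPKM in the labelled-deficient libraries and 211 and 355 FPKM in WT. A link was not tested. Gadd45b (chromosome 10, 80392811 to 80395156) was at 12.1, 11.9 and 8.26 FPKM against 4.08, 8.03 and 10.8 FPKM in WT (0.51 ± 0.45, adjusted p = 0.817; 0.17 when WT replicate 1 was left out). The summed level of the 3 genes was 23.5, 36.9 and 40.8 FPKM in the labelled-deficient libraries and 11.9, 13.5 and 22.6 FPKM in WT.

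**Figure D3:**
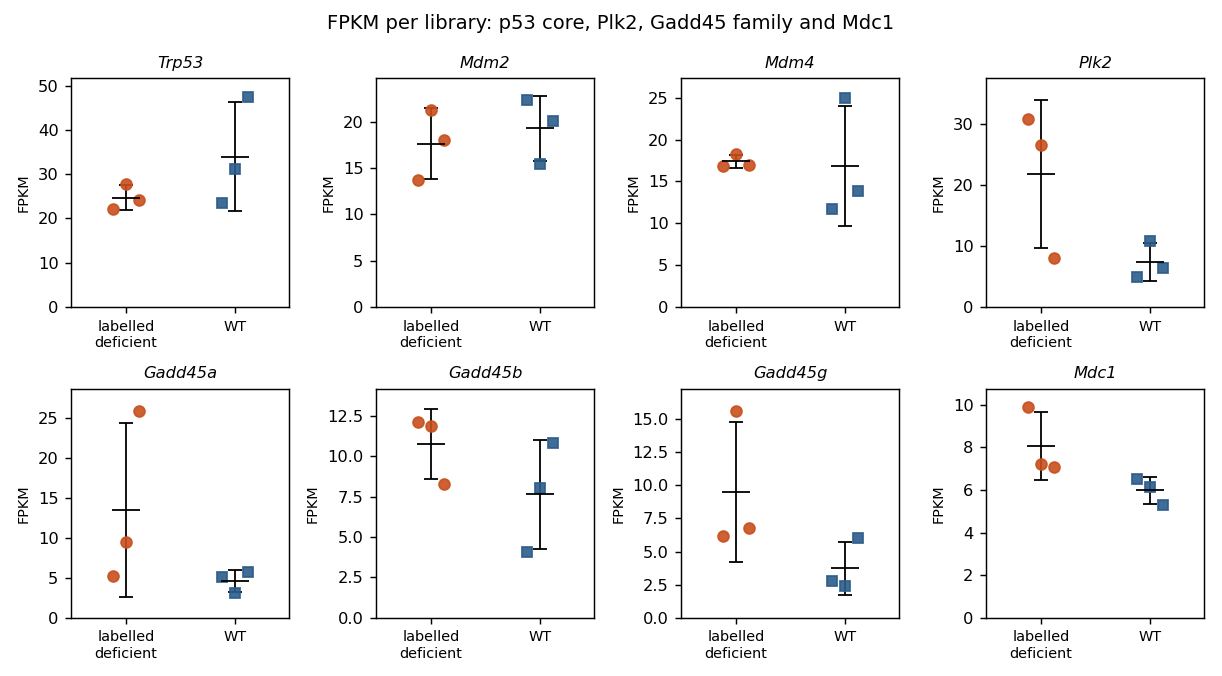
FPKM of the p53 core genes, Plk2, the 3 Gadd45 genes and Mdc1 in each library (points, replicates 1 to 3 from left to right), with the mean and SD of each group (black bars), libraries labelled Tle134-deficient left and WT right. Gadd45g and Mdc1 do not overlap between groups, Plk2 is at 30.8 and 26.5 FPKM in labelled-deficient replicates 1 and 2 and at 8.02 FPKM in replicate 3, and the Trp53, Mdm2 and Mdm4 ranges overlap.

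The damage kinases were low to moderate in level. Atm, the kinase of double-strand breaks, averaged 12.2 ± 5.73 FPKM in the labelled-deficient libraries and 10.8 ± 1.65 FPKM in WT (SD, n = 3 each). Atr, the kinase of stalled replication forks, averaged 8.37 ± 3.83 and 4.72 ± 0.819 FPKM (log2 difference 0.64 ± 0.47, limma adjusted p = 0.743). The effector kinases were uneven between replicates. Chek1, which acts below Atr, was at 0.447, 0.866 and 8.09 FPKM in labelled-deficient replicates 1 to 3 and at 0.483, 6.35 and 2.0 FPKM in WT replicates 1 to 3. In the labelled-deficient libraries its high value fell in replicate 3, where the cell cycle genes also had their highest sum of that group (464 FPKM); in WT the highest Chek1 value was in replicate 2 and the highest cell cycle sum in replicate 3 (502 FPKM). Chek2, which acts below Atm, averaged 2.79 ± 1.41 and 6.2 ± 4.55 FPKM (log2 difference -0.75 ± 0.64, adjusted p = 0.8).

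Among the mediators, Mdc1 (chromosome 17, 35978443 to 35996631), which docks on phosphorylated H2AX, was at 9.9, 7.23 and 7.09 FPKM in labelled-deficient cells against 6.54, 6.12 and 5.29 FPKM in WT cells. Every labelled-deficient value lay above every WT value, and the difference was small (log2 difference 0.37 ± 0.40, 95% interval -0.54 to 1.27, limma adjusted p = 0.866). Trp53bp1, which favours end joining at breaks, averaged 10.1 ± 7.93 and 13.9 ± 5.78 FPKM with overlapping groups. Its opponent Brca1, which promotes homologous recombination, averaged 3.17 ± 2.11 and 6.05 ± 2.06 FPKM (-0.82 ± 0.53, adjusted p = 0.7), and Brca2, which loads the recombinase, 2.89 ± 0.307 and 2.6 ± 0.728 FPKM.

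The 3 subunits of the MRN complex, which tethers and trims broken ends and activates ATM, did not share a direction. Mre11a, the nuclease, averaged 17.6 ± 6.63 FPKM in the labelled-deficient libraries and 9.43 ± 2.84 FPKM in WT (log2 difference 0.80 ± 0.44, 95% interval -0.20 to 1.79, limma adjusted p = 0.63). Nbn, the adaptor, averaged 15.5 ± 4.85 and 11.4 ± 10.2 FPKM, with the highest value of all in 1 WT library (23.1 FPKM). Rad50, the tether, averaged 11.1 ± 3.3 and 13.2 ± 0.401 FPKM (log2 difference -0.27 ± 0.39). None of the 3 passed the test.

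The target arm and the damage arm were also summarised per library. The median log2(FPKM + 1) of the 20 tested p53 targets and Gadd45 genes was 3.03, 3.33 and 3.26 in labelled-deficient replicates 1 to 3 and 2.58, 3.08 and 3.58 in WT replicates 1 to 3. That of the 12 kinases, mediators and repair factors was 3.01, 3.33 and 3.29 in the labelled-deficient libraries and 2.99, 3.08 and 3.16 in WT. All genes tested had medians of 3.13, 3.14 and 3.38 in the labelled-deficient libraries and 2.95, 3.09 and 3.38 in WT, so WT replicate 1 was low and replicate 3 of both groups high for genes in general. The median log2 difference was -0.05 for the target arm and -0.03 for the damage arm, and in each arm as many differences lay above 0 as below (10 and 10, and 6 and 6). The mean of the library medians had the opposite sign in both arms: it was 3.2 in the labelled-deficient libraries and 3.08 in WT for the target arm, and 3.21 and 3.08 for the damage arm, where all genes tested were at 3.21 and 3.14.

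**Figure D4:**
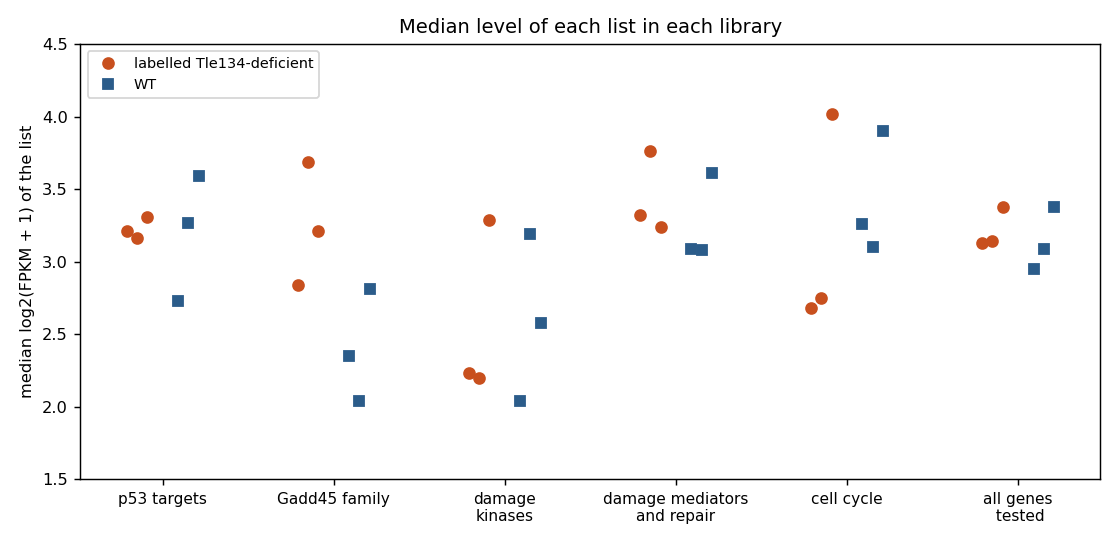
Median log2(FPKM + 1) of the tested genes of each list in each library (points, replicates 1 to 3 from left to right), libraries labelled Tle134-deficient left (circles) and WT right (squares). The Gadd45 medians, each over 3 genes, are 2.84 to 3.69 in labelled-deficient libraries and 2.04 to 2.81 in WT, a narrow gap. Of the 3 genes only Gadd45g does not overlap. The other 5 sets plotted overlap between the groups. The p53 targets outside the member list are not plotted, and their medians do not overlap either.

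Further p53 targets outside the member list were examined for the same question, and 0 of 27 tested passed over all genes in either direction. Of the 27, 4 did not overlap and were higher in the labelled-deficient libraries, and 1 did not overlap and was lower (18.5% in all, beside 15.2% of all genes tested), and 5 had an unadjusted p under 0.05 (18.5%, beside 10.0%). Their median log2 difference was 0.29, with 20 above 0 and 7 below (74.1% above 0, beside 52.7% of all genes tested). Among the 7 was Cdkn1a, which encodes p21, with overlapping groups (-0.48 ± 0.72, limma adjusted p = 0.921). Their median log2(FPKM + 1) per library was 2.84, 3.18 and 3.18 in labelled-deficient libraries and 2.48, 2.72 and 2.37 in WT libraries, with no overlap. All genes tested had medians of 3.13, 3.14 and 3.38 in labelled-deficient libraries and 2.95, 3.09 and 3.38 in WT. Genes of a list are not replicates, so these medians are a description and were not tested. The effectors of the mitochondrial death pathway did not share a direction. Bax, which permeabilizes the mitochondrial membrane, was at 26.7, 15.5 and 18.6 FPKM in labelled-deficient cells against 6.34, 11.4 and 9.88 FPKM in WT cells (log2 difference 1.06 ± 0.41, limma adjusted p = 0.397). The BH3-only gene Bbc3, which encodes PUMA, was at 0.811, 1.07 and 5.31 FPKM against 10.7, 5.49 and 9.68 FPKM in WT (-1.70 ± 0.59, adjusted p = 0.326). Pmaip1, which encodes NOXA, was at 27.2, 12.5 and 58.1 FPKM against 1.51, 18.7 and 3.62 FPKM in WT, with overlap through WT replicate 2 (2.21 ± 0.78, adjusted p = 0.331).

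The other 3 with the smallest p were all higher in the labelled-deficient libraries with no overlap. Pml, the scaffold of nuclear bodies and also an interferon-induced gene, had the smallest adjusted p of the list, at 23.5, 36.1 and 26.1 FPKM against 9.48, 14.7 and 10.1 FPKM in WT (log2 difference 1.25 ± 0.39, limma adjusted p = 0.241). Casp1, the inflammatory caspase, averaged 13.8 ± 7.31 FPKM in the labelled-deficient libraries and 4.4 ± 1.32 FPKM in WT (1.35 ± 0.49, adjusted p = 0.349). Triap1, a small survival protein, averaged 6.82 ± 1.52 and 2.95 ± 2.59 FPKM (1.27 ± 0.64, adjusted p = 0.578). The 17 B-lineage markers given above, of which 10 passed the test as higher, had sums of 1060 to 1340 FPKM against 134 to 245 FPKM in WT, and their part in these values was not tested.

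**Figure D5:**
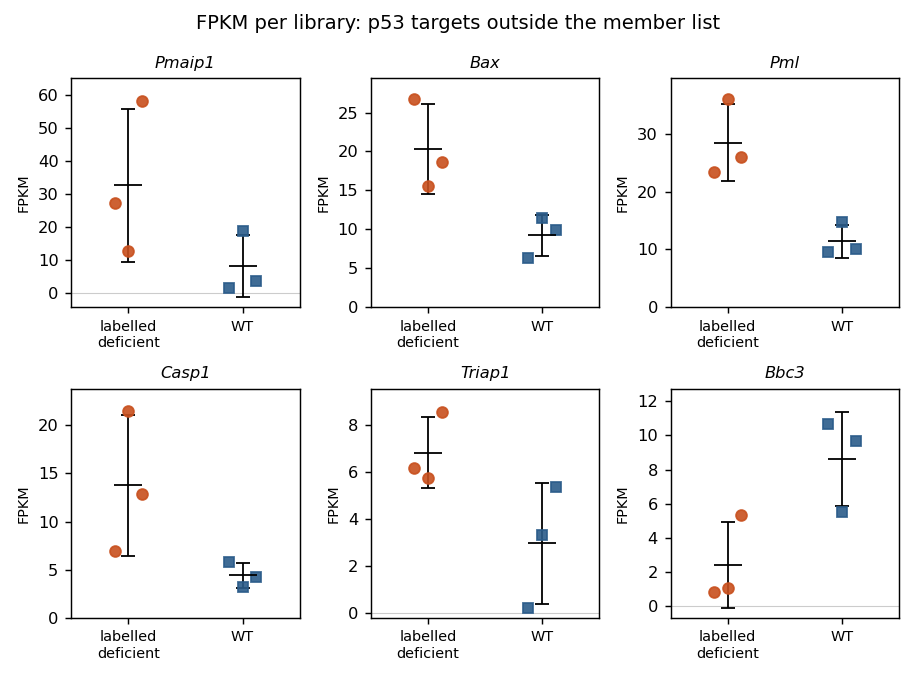
FPKM of 6 p53 targets outside the member list in each library (points, replicates 1 to 3 from left to right), with the mean and SD of each group (black bars), libraries labelled Tle134-deficient left and WT right. Bax, Pml, Casp1 and Triap1 lie higher and Bbc3 lower in the labelled-deficient libraries with no overlap, and Pmaip1 overlaps through 1 WT library at 18.7 FPKM.

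Among 39 further checkpoint and repair genes tested, 0 passed in either direction, 1 did not overlap and was higher and 4 did not overlap and were lower (12.8% in all, beside 15.2%), and 1 had an unadjusted p under 0.05 (2.56%, beside 10.0%). Their median log2 difference was -0.13. Ercc1, the excision nuclease subunit, was at 4.04, 0 and 3.55 FPKM in labelled-deficient cells against 23.5, 4.53 and 6.43 FPKM in WT cells (limma adjusted p = 0.456). Fancd2, of the crosslink repair pathway, averaged 1.3 ± 0.718 and 3.53 ± 0.71 FPKM (labelled-deficient and WT; log2 difference -1.01 ± 0.48, adjusted p = 0.533). Cdc25a, the phosphatase that checkpoints switch off, averaged 3.85 ± 1.62 and 7.84 ± 0.432 FPKM (-0.93 ± 0.46, adjusted p = 0.562). The mitotic brake Wee1 averaged 3.13 ± 2.2 and 8.66 ± 5.71 FPKM with overlap (limma adjusted p = 0.647). The fourth of the lower genes without overlap, Msh6 of mismatch repair, was chosen after its values were seen and averaged 19.5 ± 2.97 and 24.5 ± 1.76 FPKM. Rad52, a recombination factor, was the gene of this list that did not overlap and was higher, at 13.5 ± 1.64 and 7.24 ± 2.33 FPKM (0.86 ± 0.41, adjusted p = 0.535). The sixth by p was Bap1, a deubiquitinase that binds Brca1, at 13.4 ± 4.21 and 29.4 ± 18.0 FPKM with overlap. The cell cycle genes had a median log2 difference of -0.35, with 17 of 22 below 0, 0 past the threshold and 0 at an unadjusted p under 0.05, and their part in these values was not tested.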

How the data were processed

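The authors deposited 1 FPKM table per library, with bounds for every locus, in a column layout that is Cufflinks' per the file headers. Trimmomatic 0.38, TopHat2 2.1.1, featureCounts 2.0.1 and build mm9 are named in the submitters' processing notes. Neither Cufflinks' version nor its annotation and strand setting was stated in these sources. Since FPKM values are not counts, limma 3.58.1 (R 4.3.3; trend and robust steps) was used on log2(FPKM + 1), which understates the change of low genes. Names were split on commas and FPKM added over rows. Symbols sharing a locus in any library were joined, giving 23401 units, and list genes so joined were not counted. A unit was tested at 1 FPKM or more in at least 3 libraries; the threshold was an adjusted p (Benjamini-Hochberg) of 0.05. Fragments were taken as the square of FPKM over its SD, reading the upper bound as FPKM plus 2 SD; reads shared by loci make this too low. Starts were raised by 1. Promoters are RefSeq, GRCm38.p6; no coordinate was converted. The script was tested on simulated data. Tables were joined with Python 3.11.15 and pandas 2.3.3.

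The members and lists were chosen with earlier results of these data known. The members given in every library are the p53 core, the Gadd45 family, and those without overlap or with an unadjusted p under 0.05. Of each of 2 further lists, up to 6 genes by smallest p were named, some with values per library and the rest as means. Values of other members are means and ranges. Chek1, Eda2r and Phlda3, and Xpc in WT, were given per library after their values were seen. The genes of the gate, Kit and Cdkn1a were also chosen later.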

Additional observations from a re-analysis of the deposited data

How the results depend on the processing

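The count of 0 members past the threshold held under all 16 alternatives, as did 0 of both further lists. Where no gene at all passed (0 and 0 below), no member could, so those alternatives do not bear on the members. The smallest limma adjusted p of a member was 0.174, for Plk2 without labelled-deficient replicate 3. Over all genes, where the call was 71 higher and 12 lower, leaving out 1 library gave 0 to 56 higher and 0 to 11 lower. It was 0 and 0 without labelled-deficient replicate 1 or 2 or WT replicate 1 (951, 956 and 877 genes at an unadjusted p under 0.05), 2 and 2 without WT replicate 2, and 56 and 2 without WT replicate 3. Leaving out labelled-deficient replicate 3 gave 34 and 11. No filter on low values gave 0 and 0 (1181 genes at an unadjusted p under 0.05) and equal totals 0 and 0 (295 such genes). Lower genes numbered 3 at a pseudocount of 0.1, 5 at 5 and 4 without trend and robust steps. Leaving out replicate 1 of both groups, chosen after seeing the depths, gave 0 and 0. With the replicate number as a block 1 gene was higher and 1 lower. Same-numbered libraries deviated together with correlations of 0.084, 0.182 and 0.174, the best match for every library, a hint from the data only, so the numbers were not taken to pair libraries. The median difference of the damage arm (-0.03) was -0.17 with equal totals and -0.16 to 0.15 without 1 library; that of the target arm (-0.05) was -0.20 to 0.20 without 1 library. Without 1 library Mdm2 (-0.13) ranged from -0.27 to 0.03, the last without labelled-deficient replicate 1, and turned to 0.14 without replicate 1 of both groups. Mdm4 (0.11) ranged from -0.09 (without WT replicate 1) to 0.42 (without WT replicate 2) and turned to -0.02 by upper-quartile scaling, -0.01 with equal totals and -0.07 without replicate 1 of both groups. The cause was not tested. Upper-quartile scaling and equal totals moved the median of all genes from 0.04 to -0.09 and -0.08. Of 216 member values, 7 had a lower bound of 0, among them Sesn2 in labelled-deficient replicate 1 and Apaf1 in WT replicate 2 (5.46 FPKM, upper bound 17.5).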
